A study of Prunus persica with 18 samples.

Results

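Apical buds of peach shoots, excised from the upper part of the shoot, were set against basal buds of the lower part at 79 days after full bloom (DAFB), the last of the 3 times sequenced, called T5. The comparison takes the 6 libraries that the labels give as apical or basal at 79 DAFB, 3 of each, out of 18 in the series. The shoots were untreated and of Platinet 1, a flat nectarine, in all groups, and the other libraries were apical and basal buds at 45 (T1) and 58 DAFB (T3). The study was built around sprays of gibberellin, which lower the return bloom, and these buds, the untreated background of that trial, were taken before each spraying. A replicate pooled buds of several shoots from one orchard, cultivar and season.

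Peach sets its flower buds in the axils of leaves, and in late spring and early summer an axillary meristem either stays vegetative or passes to the floral state. FLOWERING LOCUS T (FT) proteins promote this step, while the related TERMINAL FLOWER 1 (TFL1) and CENTRORADIALIS (CEN) proteins hold meristems indeterminate. SQUAMOSA PROMOTER-BINDING-LIKE (SPL) factors act upstream of floral identity genes such as APETALA1 (AP1), and gibberellins and trehalose-6-phosphate are among the signals that feed into the decision. The roles are those known from Arabidopsis and other model plants. The study names 15 peach genes by identifier, several of them picked on these same libraries, so that their counts below are no independent evidence of a direction. Gene identifiers could be matched to no other annotation, so that other genes stay unnamed, and no pathway or cell-type lists were used.

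At 79 DAFB few genes separated apical from basal buds. Of 19129 genes tested, 52 (0.272%) differed at least 2-fold with a false discovery rate (FDR, the p-value adjusted for all genes tested) below 0.01, 23 higher (0.12%) and 29 lower (0.152%) in apical buds, in edgeR's quasi-likelihood test. The differences were mostly moderate: the median fold was 3.05 for the genes higher in apical buds, up to 9.04, and 2.96 for those lower, up to 13.9. Only 4 of the 23 and 6 of the 29 reached 4-fold. No group of the 52 was at the detection floor of 3 counts, and 49 of the 52 had at least 100 normalized counts in the higher group. In all 52 the apical and basal libraries did not overlap, which held for 29.4% of all genes tested. With the replicate number as a block, since apical and basal buds were excised from the same shoots, 94 genes were called, 55 higher and 39 lower in apical buds.

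The count depended on single libraries. Without apical replicate 1, 445 of 19162 genes (2.32%) were called, 324 higher (1.69%) and 121 lower (0.631%) in apical buds. They included 21 of the 23 genes higher and 29 of the 29 lower with all libraries. Leaving out any other library lowered the count, to 39 without apical replicate 2, 3 without apical replicate 3, 1 without basal replicate 1, 8 without basal replicate 2 and 6 without basal replicate 3. Of the 52 genes, 1 was called in every one of these 6 fits. The biological coefficient of variation over all genes was 0.136 with the 6 libraries and 0.103 without apical replicate 1.

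**Figure D1:**
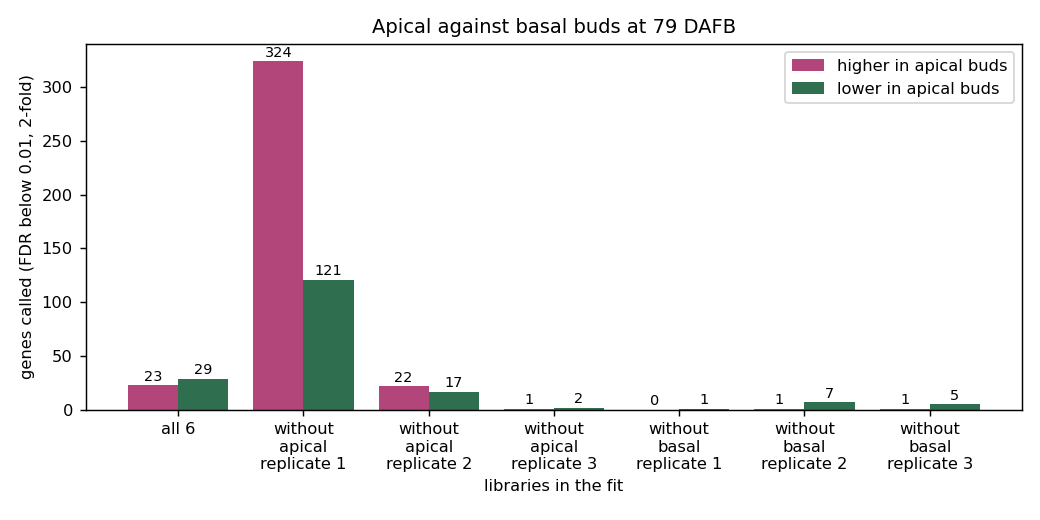
Number of genes called at 79 DAFB (FDR below 0.01 and at least 2-fold) with all 6 libraries and with each library left out. Pink bars are genes higher and green bars genes lower in apical buds. The fit without apical replicate 1 called 324 and 121, against 23 and 29 with all 6.

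Apical replicate 1 lay between the other apical libraries and the basal ones on the first principal component, and apart from both on the second. On the first principal component of the log2 CPM values (counts scaled to library size), which held 49.9% of the variance, apical replicates 1, 2 and 3 stood at 3.07, 40.1 and 31.3, and basal replicates at -24.8, -24.0 and -25.8. The groups did not overlap there (exact two-sided permutation p = 0.1, the smallest that 3 against 3 can give). On the second component, with 20.0% of the variance, apical replicate 1 stood at 32.9. All other libraries lay between -19.7 and 9.18 on it. Across genes, apical replicate 1 correlated at 0.987 on average with the basal libraries and at 0.985 with the other apical ones. Over the 2000 most variable genes the order was the reverse, 0.930 with basal and 0.940 with apical libraries. Its depth of 41764570 counts was the highest of the apical libraries, whose lowest was 27373887, and the basal libraries ran between 25801050 and 47286272. These correlations are descriptions across genes, which are no independent replicates.

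The place of apical replicate 1 was also described in the genes called without it. Among the 324 genes called higher in apical buds without it, replicate 1 lay between the basal and the other apical libraries in 273, inside the basal range in 33 and at or above another apical library in 16. The median log2 difference from the basal mean over these genes was 0.60 in apical replicate 1, 1.45 in replicate 2 and 1.22 in replicate 3. Among the 121 genes called lower, it lay between in 79, inside the basal range in 13 and at or beyond another apical library in 28. There the medians were -0.85, -1.43 and -1.21. Replicates 2 and 3 helped to choose these genes, so their medians are high by choice. A library left out of the choice tends to fall nearer the basal ones, so the counts lying between are no independent support. The same counts were not made for another library left out, and the values are given with no test. In buds, fewer cells of a type and less RNA per cell cannot be told apart, and whether the mix of buds differed in this library was not tested.

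Among genes called at 79 DAFB with at least 100 normalized counts in the higher group, the largest rises were in PRUPE_1G586200 and PRUPE_3G144000, for which no annotation could be matched. The choice also asked for groups that do not overlap, which all 52 called genes met. For these genes and the largest falls, the lack of overlap at 79 DAFB is thus given by the choice. PRUPE_1G586200 had 1384, 3836 and 2951 normalized counts in apical replicates 1, 2 and 3, against 419, 470 and 430 in basal replicates. Every apical library was above every basal one, and replicate 1 was the lowest of the apical ones. The log2 fold change was 2.64 (SE 0.31, adjusted p = 0.00578), and 2.96 without apical replicate 1 (adjusted p = 6.7e-05). PRUPE_3G144000 had 1440, 3250 and 1953 in apical buds, against 376, 521 and 484 in basal buds. The order of the apical libraries was the same, again with no overlap, at a log2 fold change of 2.28 (SE 0.27, adjusted p = 0.00578).

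PRUPE_1G586200 was lower in both positions at the earlier times. At 45 DAFB it stood at 107, 167 and 155 normalized counts in apical buds, against 64.4, 68.0 and 58.8 in basal buds. At 58 DAFB the values were 127, 84.7 and 88.3 in apical buds, against 21.1, 38.0 and 47.2 in basal buds, with no overlap at either time. Its difference was 1.15 on the log2 scale at 45 DAFB, which passed the test (adjusted p = 0.000698), and 1.49 at 58 DAFB, which did not (adjusted p = 0.0212). The change in that difference to 79 DAFB was 1.46 from 45 DAFB (adjusted p = 0.0472) and 1.14 from 58 DAFB (adjusted p = 0.176), short of the threshold in both cases.

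The largest falls among the same called genes were in PRUPE_8G177200 and PRUPE_5G205900. PRUPE_8G177200 had 11.0, 13.4 and 9.39 normalized counts in apical buds, against 267, 68.2 and 140 in basal buds, from 7 to 14 raw counts in each apical library. All apical libraries, replicate 1 included, were far below the lowest basal one, and the basal libraries were widely spread. The log2 fold change was -3.80 (SE 0.51, adjusted p = 0.00917). PRUPE_5G205900 had 121, 63.9 and 63.0 in apical buds, against 489, 507 and 346 in basal buds. Its groups did not overlap either, with apical replicate 1 the nearest to the basal ones, at a log2 fold change of -2.39 (SE 0.27, adjusted p = 0.00576) and of -2.81 without that library. Each of the 4 genes passed the FDR limit in 2 of the 6 fits that left out 1 library, with adjusted p-values of 0.0333 to 0.0479 at the highest.

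PRUPE_8G177200 turned its direction along the shoot. At 45 DAFB it had 1501, 1661 and 1438 normalized counts in apical buds, against 53.4, 74.8 and 121 in basal buds. At 58 DAFB it had 2091, 749 and 3470 in apical buds, against 7.79, 27.5 and 2.40 in basal buds. These basal values stand on 7, 29 and 3 raw counts. Apical buds were thus the higher ones at both earlier times and the lower ones at 79 DAFB, with no overlap at any time. The apical over basal difference fell by 8.05 on the log2 scale between 45 and 79 DAFB (SE 0.60, adjusted p = 5.0e-05) and fell by 11.24 between 58 and 79 DAFB (SE 1.09, adjusted p = 0.00040), as tested by the interaction of position and time. Both changes passed with the replicate block too, and in all 12 fits that left out 1 library. The gene was picked for its fall at 79 DAFB, and these fits reuse those libraries. The choice thus tends to enlarge the change, and the fits are no independent support. The size of the change from 58 DAFB rests on low raw counts in the lower group of each time. The difference at 58 DAFB alone, 7.41, passed without the block (adjusted p = 0.0037) and not with it (adjusted p = 0.0160). PRUPE_5G205900, in contrast, was lower in apical buds at 45 DAFB too, by a log2 fold change of -1.32 that passed the test (adjusted p = 6.1e-05). At 58 DAFB its log2 fold change was -0.89 and did not pass (adjusted p = 0.0322).

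**Figure D2:**
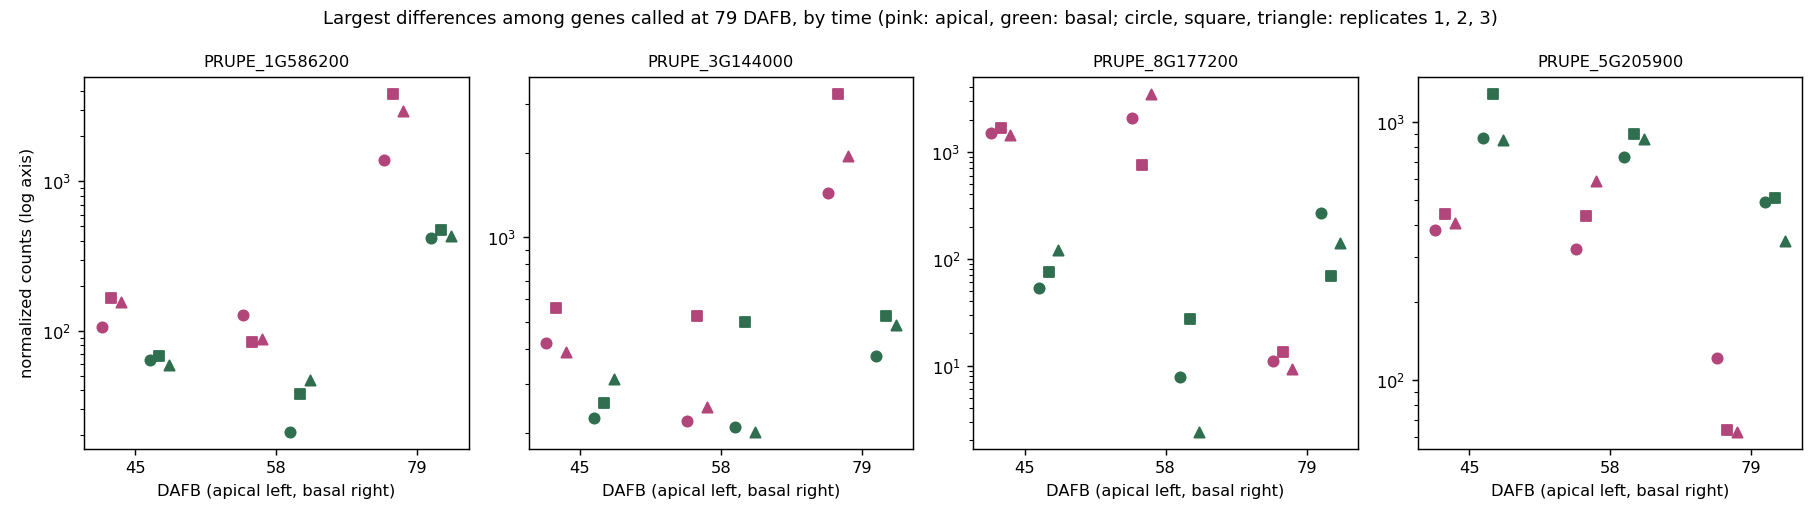
Normalized counts on a log axis of the 2 genes that rose most and the 2 that fell most among genes called at 79 DAFB with at least 100 counts in the higher group, in every library at 45, 58 and 79 DAFB. Apical libraries are pink and on the left, basal ones green and on the right. PRUPE_8G177200 had 1438 to 1661 counts in apical buds at 45 DAFB and 9.39 to 13.4 at 79 DAFB.

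Of the 15 genes named by the study, 0 passed an FDR of 0.01 at 79 DAFB in edgeR with all libraries, where 0.413% of all genes did. At an unadjusted p below 0.05 there were 6 of the 15, where 24.3% of all genes were, and 5 passed 0.01 in DESeq2 (6.46% of all genes) and 4 in limma voom with quality weights (6.96% of all genes). With apical replicate 1 left out, 3 passed, PpCEN, PpRSI-1 and TEF2, all higher in apical buds, where 7.83% of all genes passed. With a further library left out, PpCEN passed in 2, PpRSI-1 in 3 and TEF2 in 3 of 5 fits. In 6 of the 15 the apical libraries lay above the basal ones with no overlap, where 14.4% of all genes tested did so, and in 0 of the 15 they lay below, where 15% of all genes did. The median log2 fold change of the 15 was 0.20, against 0.018 over all genes tested. At an FDR of 0.05, PpCEN, PpSPL9.1, PpSPL9.2 and TEF2 were below the limit with all libraries, 4 of the 15, where 6.28% of all genes were. At the earlier times more of the 15 had passed 0.01, 7 at 45 DAFB, where 33.3% of all genes did, and 4 at 58 DAFB, where 5.06% did. The change of the difference passed for 1 of 15 from 45 DAFB (4.8% of all genes) and for 1 from 58 DAFB (1.41% of all genes).

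**Figure D3:**
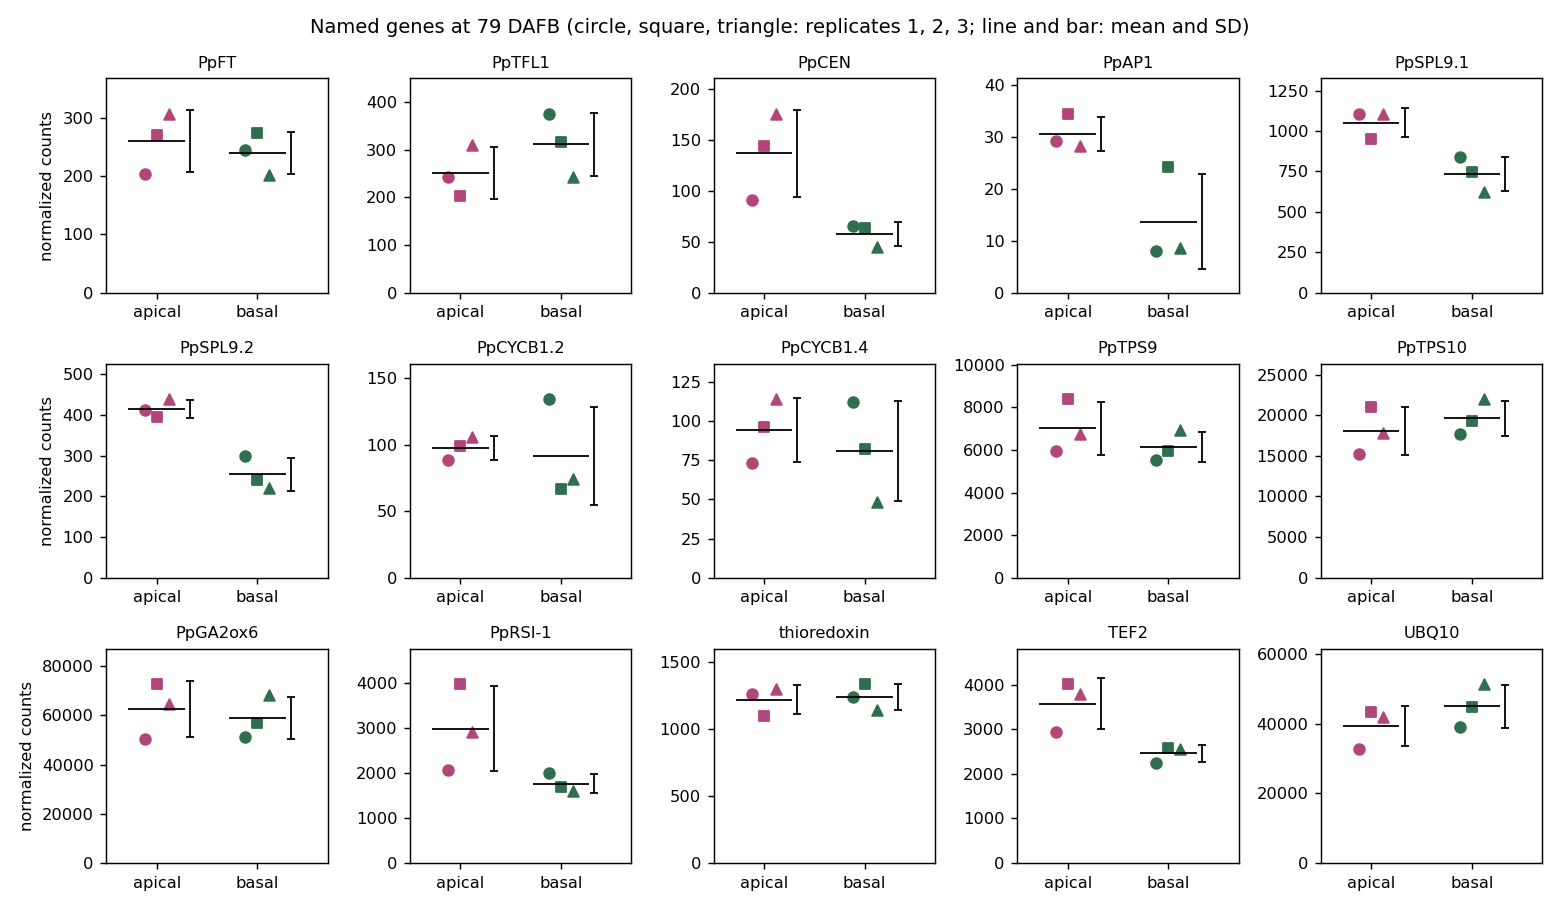
Normalized counts of the 15 named genes at 79 DAFB in each library, apical on the left and basal on the right, with the group mean (line) and SD (bar). Apical libraries lie above all basal ones for PpCEN, PpAP1, PpSPL9.1, PpSPL9.2, PpRSI-1 and TEF2, 6 of the 15.

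Within the florigen family, PpCEN was higher in every apical library, while PpFT and PpTFL1 overlapped between positions. PpCEN (PRUPE_6G128400) had 91.5, 144 and 176 normalized counts in apical buds, against 65.3, 63.9 and 44.6 in basal buds. Every apical library was above every basal one, apical replicate 1 by the smallest margin. The log2 fold change was 1.23 (SE 0.27, adjusted p = 0.0339), and 1.45 without apical replicate 1 (SE 0.22, adjusted p = 0.0043), which passed the test. PpFT (PRUPE_6G364900), the florigen, had 203, 271 and 306 in apical buds, against 245, 273 and 201 in basal buds. Its groups overlapped, and the difference of 0.12 had a 95% interval of -0.29 to 0.53 on the log2 scale. PpTFL1 (PRUPE_7G112600), the floral repressor, had 244, 202 and 310 in apical buds, against 375, 317 and 243 in basal buds. They overlapped as well, at a log2 difference of -0.31 with an interval of -0.76 to 0.15.

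At the earlier times PpCEN was not higher in apical buds by the test. At 45 DAFB it had 227, 181 and 144 normalized counts in apical buds, against 231, 237 and 256 in basal buds, a log2 fold change of -0.42 (adjusted p = 0.0425). At 58 DAFB it had 272, 147 and 170 in apical buds, against 142, 128 and 164 in basal buds, and the groups overlapped (log2 0.46, adjusted p = 0.215). Without apical replicate 1 of 58 DAFB, the one at 272, that difference was 0.14 (adjusted p = 0.502). The apical over basal difference was larger by 1.60 at 79 than at 45 DAFB (SE 0.33, adjusted p = 0.0074), and by 1.83 without apical replicate 1 (adjusted p = 0.0010). With the replicate block the change was 1.57 and missed the threshold (adjusted p = 0.0186), and it passed in 2 of the 12 fits that left out 1 library, those without apical replicate 1 of 45 or of 79 DAFB. Basal buds at 79 DAFB had 44.6 to 65.3 counts, below all basal libraries of the earlier times. The change from 58 DAFB was 0.76 and missed the threshold (adjusted p = 0.250).

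PpAP1 and the SPL genes were higher in every apical library without passing the limit. PpAP1 (PRUPE_1G290600), a floral meristem identity gene, had 29.2, 34.3 and 28.2 normalized counts in apical buds, against 8.07, 24.1 and 8.67 in basal buds. These stand on 21 to 37 raw counts in apical and 7 to 17 in basal libraries, and the log2 fold change of 1.26 had a wide error (SE 0.43, adjusted p = 0.111). Basal replicate 2 came nearest to the apical level. PpSPL9.1 (PRUPE_6G256300), a promoter of the change to the adult and floral phase, had 1105, 950 and 1104 in apical buds, against 837, 744 and 623 in basal buds. PpSPL9.2 (PRUPE_7G074200) had 412, 394 and 439 in apical buds, against 300, 240 and 222 in basal buds. Neither pair of groups overlapped, and here apical replicate 1 was not the lowest apical library. The log2 fold changes were 0.53 (SE 0.13, adjusted p = 0.0437) and 0.71 (SE 0.14, adjusted p = 0.0243).

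At 45 DAFB both SPL genes were higher in apical buds. PpSPL9.1 was so by 0.33 on the log2 scale (adjusted p = 0.0015), and by 0.29 at 58 DAFB, which did not pass (adjusted p = 0.101). PpSPL9.2 was higher in apical buds by 1.14 on the log2 scale at 45 DAFB (adjusted p = 1.1e-06), with 1581 to 1723 normalized counts in apical and 706 to 797 in basal buds. At 58 DAFB the difference was 0.99 and did not pass either (adjusted p = 0.0121). Without apical replicate 1 of that time both passed, at 0.35 for PpSPL9.1 and 1.16 for PpSPL9.2. The change to 79 DAFB of PpSPL9.2, -0.47 from 45 DAFB, missed the threshold (adjusted p = 0.0465). Levels at 79 DAFB were lower than at both earlier times in both positions.

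The mitotic cyclins overlapped between the positions at 79 DAFB. PpCYCB1.2 (PRUPE_6G021200), a B-type cyclin of dividing cells, had 88.3, 99.2 and 106 normalized counts in apical buds, against 134, 66.8 and 74.3 in basal buds. PpCYCB1.4 (PRUPE_4G269600) had 73.3, 96.4 and 114 in apical buds, against 112, 82.4 and 48.3 in basal buds. The highest basal value was that of replicate 1 for both, and the groups overlapped. The log2 differences were 0.068 (interval -0.55 to 0.68) and 0.20 (interval -0.49 to 0.88), which leaves room for a difference of either sign. Without basal replicate 1 they were 0.48 and 0.54, and without basal replicate 3 they were -0.063 and -0.056.

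At the earlier times both cyclins were higher in apical buds. PpCYCB1.2 had 614 to 717 normalized counts in apical and 306 to 391 in basal buds at 45 DAFB, a log2 fold change of 0.91 (adjusted p = 6.5e-05). At 58 DAFB it had 463 to 579 in apical and 191 to 199 in basal buds, a log2 fold change of 1.43 (adjusted p = 0.0020). PpCYCB1.4 was higher by 0.73 at 45 DAFB and by 1.52 at 58 DAFB, and both passed. With the replicate block the 58 DAFB differences of both stood just above the limit (adjusted p = 0.0109 and 0.0114). The change in the difference between 58 and 79 DAFB was -1.38 for PpCYCB1.2 (SE 0.31, adjusted p = 0.0231) and -1.34 for PpCYCB1.4 (SE 0.37, adjusted p = 0.0523). Neither passed an FDR of 0.01. Counts of both cyclins at 79 DAFB were below those of every earlier library.

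The thioredoxin gene was level between the positions at 79 DAFB and had not been so at the earlier times. It (PRUPE_1G410500), whose product belongs to a family of redox proteins, had 1263, 1099 and 1302 normalized counts in apical buds, against 1243, 1335 and 1145 in basal buds. The groups overlapped fully, with a log2 fold change of -0.011 and a 95% interval of -0.24 to 0.22. At 58 DAFB it had 1056, 1437 and 1280 in apical buds, against 460, 408 and 418 in basal buds, a log2 fold change of 1.55 (adjusted p = 0.0019). The difference changed by -1.58 on the log2 scale between 58 and 79 DAFB (SE 0.18, adjusted p = 0.00062), and by -1.62 without apical replicate 1 of 79 DAFB (adjusted p = 0.0025). It passed in all 12 fits that left out 1 library, but not with the replicate block (-1.57, adjusted p = 0.0143), nor did the difference at 58 DAFB (adjusted p = 0.0109). In basal buds the levels at 79 DAFB, 1145 to 1335, were above all basal libraries of the earlier times. At 45 DAFB the gene was higher in apical buds by 0.39 on the log2 scale (adjusted p = 0.0011, and 0.00065 with the replicate block). Its difference changed by -0.44 from 45 to 79 DAFB, short of the threshold (adjusted p = 0.0336).

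The trehalose phosphate synthases showed no difference at 79 DAFB that passed the test. PpTPS9 (PRUPE_5G176400), which the study names as a trehalose phosphate synthase gene, had 5956, 8379 and 6734 normalized counts in apical buds. Basal buds had 5532, 5963 and 6934. Trehalose-6-phosphate itself was not measured. PpTPS10 (PRUPE_1G256200) had 15218, 21064 and 17776 in apical buds, against 17689, 19244 and 21959 in basal buds. Groups overlapped in both, with log2 differences of 0.20 (interval -0.10 to 0.51) and -0.11 (interval -0.42 to 0.20). At 45 DAFB both were lower in apical buds, by log2 fold changes of -0.35 (adjusted p = 0.0068) and -0.52 (adjusted p = 0.00082). At 58 DAFB both stood at -0.65 and did not pass (adjusted p = 0.0171 and 0.109). Without apical replicate 1 of 58 DAFB, PpTPS9 passed at -0.56 (adjusted p = 0.0014) and PpTPS10, at -0.39, did not (adjusted p = 0.0163). The change in the difference of PpTPS9 between 58 and 79 DAFB was 0.84 and missed the threshold (adjusted p = 0.0311). Both positions had several times the counts of the earlier times, when PpTPS9 ran between 830 and 1665.

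Of the genes tied to gibberellin, PpRSI-1 was higher in apical buds without apical replicate 1, and PpGA2ox6 overlapped between positions. PpRSI-1 (PRUPE_3G161500), which the study groups with gibberellin-related genes, had 2076, 3972 and 2909 normalized counts in apical buds, against 1995, 1695 and 1592 in basal buds. Apical replicate 1 was just above the highest basal library. The log2 fold change was 0.77 (SE 0.20, adjusted p = 0.0538), and 0.97 without apical replicate 1 (SE 0.14, adjusted p = 0.0036), which passed. PpGA2ox6 (PRUPE_4G150200), of the gibberellin 2-oxidase family that inactivates gibberellins, had 50350, 72570 and 64748 in apical buds, against 51367, 57060 and 68059 in basal buds. The groups overlapped, at a log2 difference of 0.099 with an interval of -0.28 to 0.47. PpRSI-1 was higher in apical buds at 58 DAFB as well, by 1.01 (adjusted p = 0.0035, and 0.0194 with the replicate block), and the change to 79 DAFB was -0.25 (adjusted p = 0.561).

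Of the genes that served the study as references in quantitative PCR, TEF2 was higher in every apical library and UBQ10 overlapped. TEF2 (PRUPE_4G138900), a translation elongation factor gene, had 2930, 4005 and 3780 normalized counts in apical buds, against 2239, 2585 and 2546 in basal buds. All apical libraries were above all basal ones, at a log2 fold change of 0.55 (SE 0.12, adjusted p = 0.0318), and of 0.67 without apical replicate 1 (SE 0.084, adjusted p = 0.0021). UBQ10 (PRUPE_4G204900), a polyubiquitin gene, had 32712, 43296 and 41760 in apical buds, against 38919, 44809 and 51256 in basal buds. It overlapped between groups, with a log2 difference of -0.19 and an interval of -0.52 to 0.15. At 45 and 58 DAFB, TEF2 had 554 to 880 normalized counts over all 12 libraries, below each of the 6 at 79 DAFB.

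**Figure D4:**
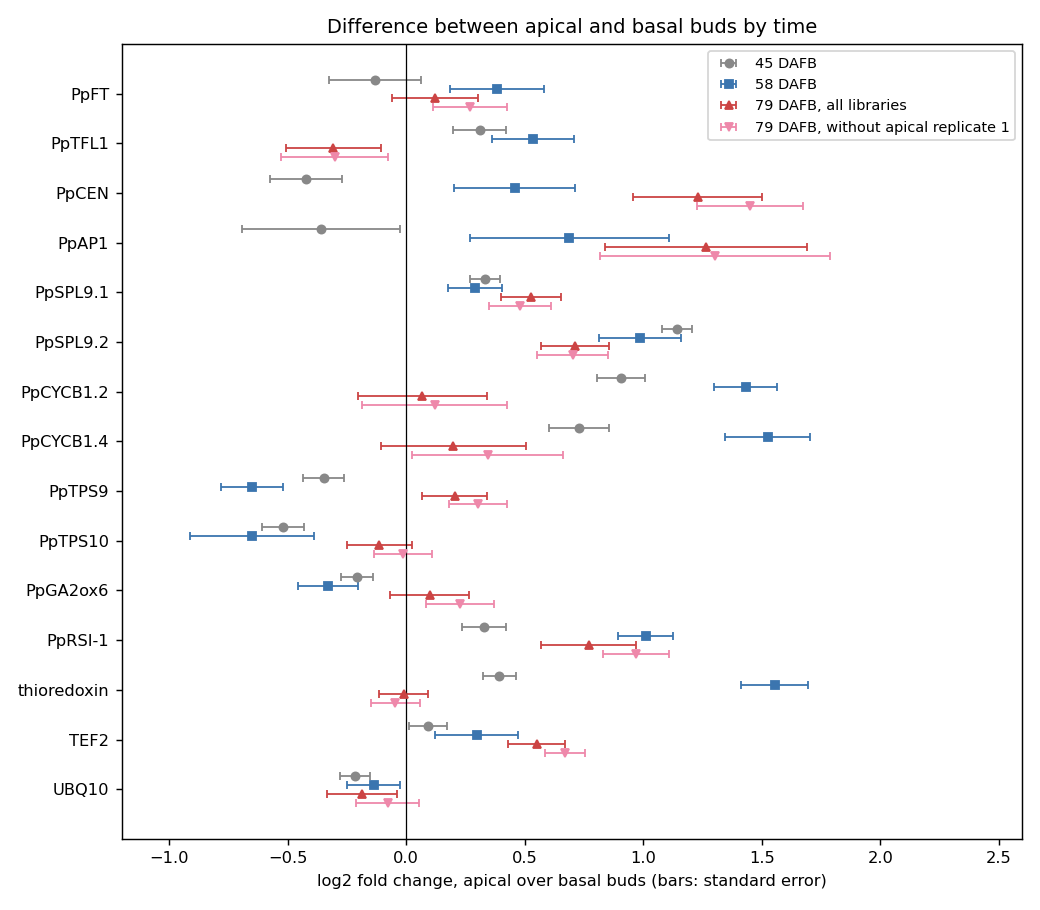
Log2 fold change of apical over basal buds for the 15 named genes at 45, 58 and 79 DAFB, the last with and without apical replicate 1. Bars are standard errors of the edgeR fit. With all libraries of each time, PpCEN stands at -0.42, 0.46 and 1.23 over the 3 times, and thioredoxin at 0.39, 1.55 and -0.011.

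With all libraries of each time, fewer genes were called at 79 DAFB than at the earlier times. At 45 DAFB 1156 genes (6.03%) were called, 802 higher and 354 lower in apical buds. At 58 DAFB it was 749 (3.9%), 621 higher and 128 lower, or 1230 (6.38%) without apical replicate 1 of that time, which stood apart, and 125 with the replicate block. Leaving out basal replicate 1, 2 or 3 gave 12, 27 and 14 at 58 DAFB, and 1, 8 and 6 at 79 DAFB. Leaving out apical replicate 2 or 3 gave 486 and 117 at 58 DAFB, and 39 and 3 at 79 DAFB. The coefficient of variation was 0.0689 at 45 and 0.194 at 58 DAFB. The interaction of position and time tests the change itself. It called 500 genes (2.55%) between 45 and 79 DAFB, with 191 shifts toward apical (0.975%) and 309 toward basal buds (1.58%). Between 58 and 79 DAFB it called 242 (1.23%), 40 toward apical (0.203%) and 202 toward basal buds (1.03%), and 65 with the replicate block. Without apical replicate 1 of 79 DAFB the counts were 681 (3.45%), with 315 shifts toward apical and 366 toward basal buds, and 168 (0.848%), with 33 and 135.

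Genes called at 79 DAFB had been called in the same direction earlier at higher shares than all genes. Most of them, like most genes tested, had been called at neither earlier time. Genes called in either direction were 6.03% of all genes at 45 DAFB and 3.9% at 58 DAFB. Of the 23 genes higher in apical buds, 3 were called in that direction at 45 DAFB, where 4.19% of all genes tested were, 3 at 58 DAFB, where 3.23% were, and 18 at neither time in either direction. Of the 29 lower genes, 10 were called lower at 45 DAFB, where 1.85% of genes were, 3 at 58 DAFB, where 0.666% were, and 16 at neither. Of the 52, PRUPE_8G177200 alone was called in the opposite direction at these times, with all libraries of each. The earlier libraries are separate from those of 79 DAFB. As shares of the earlier lists these are 3 of 802 higher and 10 of 354 lower genes at 45 DAFB, and 3 of 621 higher and 3 of 128 lower genes at 58 DAFB, where 0.12% of all genes were called higher and 0.152% lower at 79 DAFB. Without apical replicate 1, 73 of the 324 higher genes were called higher at 45 and 68 at 58 DAFB, and 28 and 18 of the 121 lower genes were called lower at those times. Of the earlier lists these are 73 of 802 and 28 of 354, and 68 of 621 and 18 of 128, where 1.69% of all genes were called higher and 0.631% lower at 79 DAFB.

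Genes that marked a position at both earlier times had smaller differences at 79 DAFB. Apical buds had 352 genes called higher at 45 and at 58 DAFB, with median log2 fold changes of 1.52 and 1.91. For the 314 of them tested at 79 DAFB the median was 0.27, and 0.41 without apical replicate 1, where all genes had medians of 0.018 and 0.0017. Of the 314, 1 was called higher again and 1 lower, where 0.12% and 0.152% of all genes were. In the fit without apical replicate 1, 50 of 320 were called higher and 3 lower, where 1.69% and 0.631% of all genes were. The interaction called a shift toward basal buds in 104 of them from 45 DAFB, where 1.58% of all genes were called so, and in 92 from 58 DAFB, where 1.03% were. Of 55 genes lower in apical buds at both earlier times, 52 were tested, with a median of -0.48 at 79 DAFB (-0.69 without apical replicate 1), against -1.45 and -1.61 before. Of these, 1 was called lower again, and 7 of 54 without apical replicate 1. A shift toward apical buds was called in 13 from 45 and in 8 from 58 DAFB, where 0.975% and 0.203% of all genes were called so. The lists were made from large differences at the earlier times, so part of the drop is given by that choice. The interaction fits reuse those earlier libraries, so the choice also raises their counts against the shares of all genes.

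Single libraries at 79 DAFB were spread on these lists. For the 352 genes the median log2 difference from the basal mean was 0.054, 0.40 and 0.49 in apical replicates 1, 2 and 3, against 0.37, -0.063 and -0.26 in basal replicates. Basal replicate 1 lay between apical replicates 1 and 2, so the groups overlapped. At the earlier times every apical library was at 1.52 or above. For the 55 genes the values were -0.19, -0.80 and -0.63 in apical buds, against -0.11, 0.022 and 0.049 in basal buds. Here the groups did not overlap, and apical replicate 1 was again the apical library nearest to the basal ones.

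**Figure D5:**
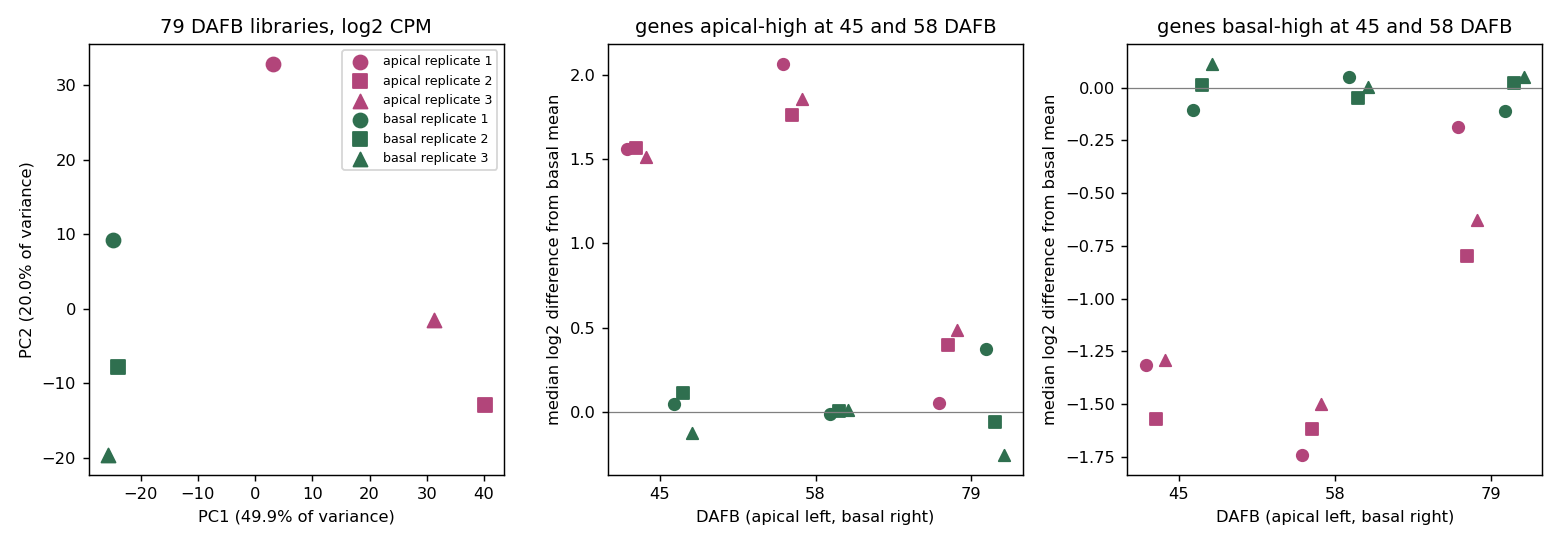
Left: the 6 libraries of 79 DAFB on the first 2 principal components of log2 CPM. Middle and right: for genes called apical-high or basal-high at both 45 and 58 DAFB, the median log2 difference of each library from the basal mean of its time. Apical replicate 1 of 79 DAFB is at 0.054 and -0.19, near the basal libraries.

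Over all genes the fold changes of 79 DAFB were positively related to the earlier ones. Across 18718 genes, Pearson's r was 0.22 and Spearman's rho 0.28 with 45 DAFB, and across 18775 genes they were 0.25 and 0.36 with 58 DAFB. Leaving out apical replicate 1, r was 0.28 and rho 0.35 with 45 DAFB, and r was 0.37 and rho 0.49 with 58 DAFB. These are descriptions across genes, from separate libraries of the same kind, and have no test.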

How the data were processed

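Buds were sequenced on an Illumina platform from a stranded mRNA library kit, and the authors used FastQC, HISAT2 and HTSeq, with no version given in the sources used here. The deposited values are the authors' raw read counts per gene, not normalized, for 26873 genes in 18 libraries. The counting mode and strand setting are not given in the sources used here, so reads of overlapping, antisense or near-identical genes may be shared. None of the 26873 identifiers (0) matched the reference table, so names are those of the paper and no sequence is printed. Columns were assigned by their names.

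Counts were tested with edgeR 4.0.16 (quasi-likelihood, TMM, filterByExpr) in R 4.3.3, with Benjamini-Hochberg adjustment over all genes tested, which is the source of every adjusted p given. A gene was called at an FDR below 0.01 and at least 2-fold. Only libraries of the times compared entered a fit, and changes between times were tested as an interaction. Levels are counts scaled by TMM over 18 libraries to the mean library size. Principal components and correlations used log2 CPM with a prior count of 4. DESeq2 1.42.0, limma 3.58.1, other normalizations, filters and thresholds, and fits without each library were tried. The test was checked on simulated data with independent libraries, none of them intermediate and none paired. That check says nothing on the dependence on single libraries or on the replicate block. Figures were drawn with matplotlib 3.10.9.

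Genes named are the 15 of the paper and the 2 largest rises and 2 largest falls among genes called at 79 DAFB that do not overlap and have at least 100 normalized counts in the higher group. A further rule, for genes in which apical replicate 1 lay in the basal range, is given only as counts. Members and lists were chosen with earlier results of these data known. Replicates are separate samplings of shoots, each with apical and basal buds of the same shoots by the methods, so equal numbers were taken to pair libraries. The deviations of equal-numbered libraries from their group means correlated at 0.22, 0.021 and -0.069 at 79 DAFB, and those of unequal-numbered libraries at -0.25 to 0.22, so that the pairing rests on the methods and not on the counts. Depth was 25801050 to 47286272 counts at 79 DAFB, and 3 replicates per group limit the precision. Pairs of replicates all differed by more than sampling noise.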

Additional observations from a re-analysis of the deposited data

Results flagged for a closer look

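The apical over basal difference of 4 gene and time pairs differed from that at 79 DAFB by the interaction test of edgeR. For PpCEN it was larger by 1.60 on the log2 scale at 79 than at 45 DAFB (adjusted p = 0.0074, and 0.0186 with the replicate block). For thioredoxin the change from 58 to 79 DAFB was -1.58 (adjusted p = 0.00062, and 0.0143 with the replicate block). For PRUPE_8G177200 the change was -8.05 from 45 DAFB (adjusted p = 5.0e-05) and -11.24 from 58 DAFB (adjusted p = 0.00040), with every apical library above every basal one at both earlier times and below at 79 DAFB. The size of the change of PRUPE_8G177200 from 58 DAFB rests on low raw counts in the lower group of each time. That gene was picked for its fall at 79 DAFB in the same libraries, so its changes are no independent support. With 3 libraries per group, single libraries were not tested as outliers.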

How the results depend on the processing

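The count at 79 DAFB depended on the processing. Against 52 genes, DESeq2 called 299, limma voom with quality weights 364, a fit of all 18 libraries 238, no filter on low counts 157, and an FDR below 0.05 with no fold limit 1202. A test against a 2-fold change called 0 in edgeR, with 215 at an unadjusted p below 0.05. Leaving out 1 library gave 1 to 445. Without apical replicate 1 (445), an FDR below 0.05 gave 4223, the test against 2-fold 7, and leaving out another library 97 to 411. With the replicate block, which pairs the apical and basal libraries of a number, 94 genes were called at 79 DAFB, 125 against 749 at 58 DAFB, and 65 against 242 for the change from 58 DAFB. The block moved no other count by over 1.5 times and changed no call of a named gene at 79 DAFB. It ended every call among the named genes at 58 DAFB, that of PRUPE_8G177200 included, and those of the changes of PpCEN and thioredoxin. At 45 DAFB PpRSI-1 and UBQ10 passed the FDR limit with the block, but at under 2-fold (log2 0.32 and -0.22), so they were not called. DESeq2 called 1622 genes at 58 DAFB, where leaving out 1 library gave 12 to 1230, and 819 and 771 for the changes from 45 and 58 DAFB, against 500 and 242. At 45 DAFB every alternative stayed within 1.5 times of 1156, and leaving out 1 library gave 970 to 1190.

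Among the named genes, DESeq2 passed PpCEN, PpSPL9.1, PpSPL9.2, PpRSI-1 and TEF2 with all libraries. Leaving out 1 library turned the sign of 5 genes that never passed, with log2 fold changes of -0.0020 to 0.27 for PpFT, -0.11 to 0.48 for PpCYCB1.2, -0.056 to 0.54 for PpCYCB1.4, -0.016 to 0.23 for PpGA2ox6 and -0.064 to 0.066 for thioredoxin. The correlation of apical replicate 1 with basal minus other apical libraries was 0.0017, and -0.0103 over the 2000 most variable genes. With 3 libraries per group and a coefficient of variation of 0.136, small differences were not detectable, and the counts rest on few libraries.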
